A study of Mus musculus with 12 samples.

Results

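Respiratory complex I (NADH:ubiquinone oxidoreductase) is built from many proteins, most of them encoded in the nucleus, and the nuclear genes carry the symbols Ndufa, Ndufb, Ndufc, Ndufs and Ndufv. The genes described here are all those with such a symbol, other than the Ndufaf assembly factors, for which a probe set of the array had that single symbol in the platform annotation. There were 34 of them among 12393 genes, and the brightest probe set, by its average over all 12 arrays, stands for each gene. Levels were RMA values on a log2 scale, as deposited by the authors. Primary mouse embryonic fibroblasts at passage 4 came from mice without HtrA2, a serine protease of the space between the mitochondrial membranes, or from wild-type mice. The labels do not say in which cells the gene was removed or whether replicates came from separate embryos, so the p-values cover only the spread between these arrays, which may be technical. The 4 groups, of 3 arrays each, were knockout (KO) cells given 1 µM rotenone for 4 h, knockout cells given vehicle for 4 h, wild-type (WT) cells given 1 µM rotenone for 4 h, and wild-type cells given vehicle for 4 h. Rotenone is a plant compound that blocks complex I, so the question here is whether the transcripts of its own target complex moved with the drug, with the loss of HtrA2, or with both.

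Complex I takes electrons from NADH and hands them to ubiquinone in the inner mitochondrial membrane, and it pumps protons out of the matrix as it does so. It has the shape of an L. The matrix arm holds the flavin and the iron-sulphur clusters that carry the electrons, and the membrane arm holds the proton channels, whose core is encoded by mitochondrial DNA. Rotenone binds near the end of the electron path, where ubiquinone is reduced. Around the core subunits sit many accessory subunits, which stabilise the complex and are needed to assemble it. Of the 34 genes, 6 encode core subunits (Ndufs1, Ndufs3, Ndufs7, Ndufs8, Ndufv1 and Ndufv2), 8 encode accessory subunits of the matrix arm and 18 encode accessory subunits of the membrane arm. The other two are Ndufab1, the mitochondrial acyl carrier protein, and Ndufa4, which was first assigned to complex I and is now counted as a subunit of complex IV.

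The promoters of 31 of the 34 genes were found in RefSeq's table of promoters (GRCm38.p6), which gives 250 bases before and 50 bases after each gene's start. Windows were searched on both strands for strings of letters that are known binding sites at mitochondrial genes. A gene was counted if any of its windows held the string, so genes with more windows, such as Ndufa5 and Ndufa7 with 2, had more chances. CCCGCC, the GC box, was in 19 of the 31 genes (61.3%) and in 37.9% of all 27025 genes. AAGATGGCG, a string of YY1 sites, was in 4 genes (12.9%), Ndufa9, Ndufc1, Ndufs4 and Ndufs7, against 1.64% of all genes. CCGGAAG, an ETS site, was in 4 genes (12.9%), Ndufb6, Ndufb7, Ndufs3 and Ndufs8, against 9.93% of all genes. GCATGCGC, part of the site of the factor NRF1, was in 2 genes (6.45%), Ndufa6 and Ndufa8, against 3.05% of all genes. With GC before it, the string was in 0 of the 31 and in 1.07% of all genes. Some of these strings can share letters at their ends, such as AAGATGGCG with the reversed GC box, and a match is a string of letters, not a measured site. The 250 bases before the start are shown, on the strand of the gene and with these strings in capitals, for Ndufa3, which was far lower on one array, for Ndufa10, which was not, and for Ndufb7, of which a second probe set was called for rotenone in the fit with the block. Ndufa3 lies at chr7:3617123-3617372 on the plus strand, Ndufa10 at chr1:92473759-92474008 on the minus strand and Ndufb7 at chr8:83566508-83566757 on the plus strand. In the Ndufa3 window the GC box stands on the opposite strand and reads GGCGGG.
Ndufa3: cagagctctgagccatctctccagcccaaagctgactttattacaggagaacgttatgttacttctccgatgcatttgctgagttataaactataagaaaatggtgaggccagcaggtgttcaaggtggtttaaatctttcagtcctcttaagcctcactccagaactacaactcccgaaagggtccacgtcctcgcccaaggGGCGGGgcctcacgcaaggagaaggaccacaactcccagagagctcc
Ndufa10: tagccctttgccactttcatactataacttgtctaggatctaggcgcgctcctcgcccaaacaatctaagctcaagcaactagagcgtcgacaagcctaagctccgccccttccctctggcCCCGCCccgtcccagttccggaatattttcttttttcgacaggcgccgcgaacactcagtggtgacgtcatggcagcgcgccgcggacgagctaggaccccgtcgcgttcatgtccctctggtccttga
Ndufb7: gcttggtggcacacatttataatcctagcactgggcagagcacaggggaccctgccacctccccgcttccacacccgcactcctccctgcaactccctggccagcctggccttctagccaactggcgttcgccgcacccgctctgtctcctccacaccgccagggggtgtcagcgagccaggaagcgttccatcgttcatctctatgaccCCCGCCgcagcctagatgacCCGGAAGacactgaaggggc
All 3 windows hold a GC box, and Ndufb7 holds an ETS string beside it.

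Levels over all probe sets spanned 3.19 to 14.59, with medians per array of 7.53 to 7.58. Htra2 averaged 7.77 ± 0.09 in knockout cells with rotenone, 7.67 ± 0.17 in knockout cells with vehicle, 9.08 ± 0.06 in wild-type cells with rotenone and 9.06 ± 0.24 in wild-type cells with vehicle (SD, n = 3 each). For the 3 arrays titled wild type with rotenone, the labels' genotype field says knockout, but Htra2 on them was at the wild-type level. All 10 fibroblast markers were measured, 7 of them past the 90th percentile. Of the leukocyte, epithelial, endothelial, neural, fat and red cell markers 0 were above it, and of the muscle markers 1 was. Below the 40th percentile were 3 of 6 leukocyte, 2 of 5 epithelial, 4 of 5 endothelial and 3 of 5 neural markers. So were 3 of 5 muscle, 3 of 4 fat and 2 of 2 measured red cell markers, and the rest of these markers were not. Arrays that stood apart were those numbered 3 in all 4 groups, which were separated from the others on the first principal component (22.6 to 30.9, against -20.1 to -5.69). Within them, replicate 3 of wild type with rotenone had the lowest median correlation with the other arrays (0.985, against 0.987 to 0.993), and it was the array on which the complex I genes were lowest. The main results that use it are given with and without it.

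On their brightest probe sets, no complex I gene changed with rotenone past the test. In the mean of the rotenone effects of both genotypes, no gene of the 34 passed the limma threshold (adjusted p under 0.05 over 22626 probe sets), while 0.217% of all probe sets did. In the fit with the replicate number as block the count was also 0, against 2.46% of all probe sets. The estimates ran from -0.27 to 0.00 on the log2 scale with a median of -0.11, and 32 of 34 were below 0, against 41.4% of all probe sets, whose median was 0.02. All 34 intervals at 95% confidence lay within 1.5-fold in either direction. At an unadjusted p under 0.05 there were 3 genes (Ndufa4, Ndufa5 and Ndufb7), or 8.82%, against 7.9% of all probe sets. In the fit with the block there were 4, against 15% of all probe sets. Leaving out replicate 3 of wild type with rotenone brought the median to -0.04, with 27 of 34 below 0 and no gene under an unadjusted p of 0.05. In bulk RNA, fewer cells of a type and less RNA per cell cannot be told apart. The mean level of the 5 neural markers was 6.53 to 6.68 in knockout with rotenone, 6.80 to 7.09 in knockout with vehicle, 6.49 to 6.62 in wild type with rotenone and 6.72 to 7.05 in wild type with vehicle. Among them only Tubb3, a tubulin, was called (-1.37; limma adjusted p = 0.0331), the median effect of the 5 was -0.11, Sox2, Dcx and Map2 were below the 40th percentile, and the part of such cells in the complex I levels was not tested. Of the 10 fibroblast markers Pdgfra was called lower, in the fit with the block only, and the median effect of the 10 was 0.0001. Levels on the 6 rotenone arrays overlapped those on the 6 vehicle arrays for all 34 genes, while 0.446% of all probe sets were wholly lower with rotenone.

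**Figure D1:**
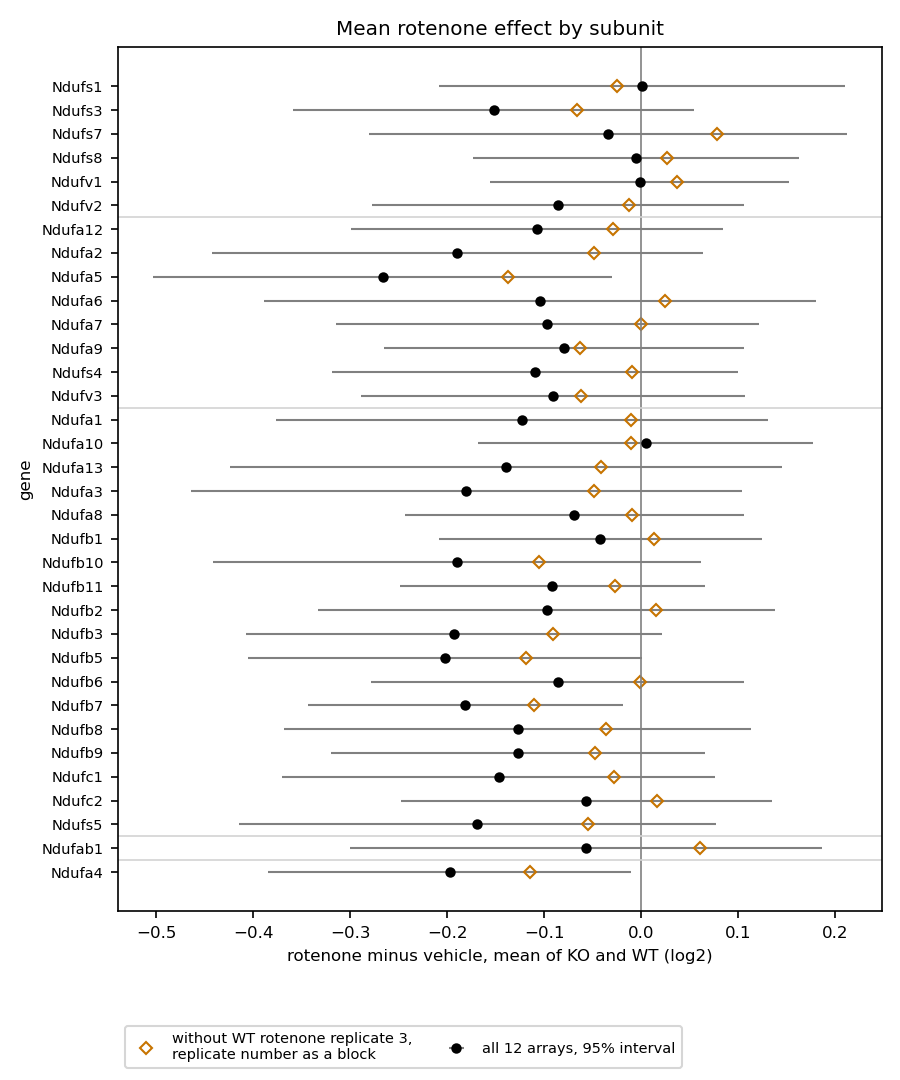
Mean rotenone effect of each of the 34 genes, as rotenone minus vehicle on the log2 scale averaged over knockout and wild type. Black points with lines are the limma estimates and 95% intervals over 12 arrays; open diamonds are the estimates with the replicate number as a block and without replicate 3 of wild type with rotenone. The black points lie between -0.27 and 0.00, and most diamonds lie nearer to 0.

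Core subunits carry the flavin and the iron-sulphur clusters. Their mean rotenone effects had a median of -0.02, with 5 of 6 below 0, and ran from -0.15 (Ndufs3) to 0.00 (Ndufs1). When replicate 3 of wild type with rotenone was left out, the median was -0.005 with 3 of 6 below 0, and the range was from -0.11 (Ndufs3) to 0.04 (Ndufs7). Ndufv1 holds the flavin that accepts electrons from NADH. Ndufv1 read 10.39, 10.47 and 10.48 on the knockout rotenone arrays, against 10.55, 10.32 and 10.42 on the knockout vehicle arrays. In wild type, Ndufv1 read 10.68, 10.44 and 10.37 with rotenone, against 10.53, 10.44 and 10.58 with vehicle. The rotenone and vehicle arrays overlapped in both genotypes, and the mean effect was -0.0016 ± 0.07 (SE; limma adjusted p = 0.999). Ndufv2 sits beside it and carries an iron-sulphur cluster. Ndufv2 read 11.10, 11.05 and 11.33 on the knockout rotenone arrays, against 11.24, 11.05 and 11.32 on the knockout vehicle arrays. In wild type, Ndufv2 read 11.41, 11.14 and 11.00 with rotenone, against 11.39, 11.20 and 11.36 with vehicle. The mean effect was -0.09 ± 0.09 (SE; limma adjusted p = 0.871), and the groups overlapped. Ndufs1 is the largest subunit and carries several clusters. Ndufs1 read 9.83, 10.01 and 10.13 on the knockout rotenone arrays, against 10.07, 9.95 and 10.22 on the knockout vehicle arrays. In wild type, Ndufs1 read 9.99, 10.27 and 10.49 with rotenone, against 10.13, 10.06 and 10.30 with vehicle. Its highest value of all 12 arrays was on replicate 3 of wild type with rotenone, where most other subunits had their lowest. The groups overlapped in both genotypes, and the mean effect was 0.00062 ± 0.10 (SE; limma adjusted p = 0.999).

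Ndufs3 is a core subunit at the base of the matrix arm. Ndufs3 read 10.52, 10.46 and 10.74 on the knockout rotenone arrays, against 10.70, 10.55 and 10.96 on the knockout vehicle arrays. In wild type, Ndufs3 read 10.86, 10.64 and 10.49 with rotenone, against 10.83, 10.66 and 10.93 with vehicle. Its lowest value was on replicate 2 of knockout with rotenone, the groups overlapped, and the mean effect was -0.15 ± 0.09 (SE; limma adjusted p = 0.764). Ndufs7 holds the last cluster of the chain, next to the place where ubiquinone and rotenone bind. Ndufs7 read 10.26, 10.59 and 10.61 on the knockout rotenone arrays, against 10.59, 10.27 and 10.65 on the knockout vehicle arrays. In wild type, Ndufs7 read 10.65, 10.54 and 10.17 with rotenone, against 10.45, 10.34 and 10.74 with vehicle. The groups overlapped, and the mean effect was -0.03 ± 0.11 (SE; limma adjusted p = 0.969). Ndufs8 binds a pair of clusters just before it, and its probe set is of the type (x_at) that may bind related transcripts. Ndufs8 read 11.21, 11.23 and 11.10 on the knockout rotenone arrays, against 11.26, 11.12 and 11.13 on the knockout vehicle arrays. In wild type, Ndufs8 read 11.51, 11.23 and 11.13 with rotenone, against 11.40, 11.19 and 11.34 with vehicle. Here too the groups overlapped, with a mean effect of -0.01 ± 0.08 (SE; limma adjusted p = 0.996).

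Among the 8 accessory subunits of the matrix arm the mean rotenone effects were all below 0, from -0.27 (Ndufa5) to -0.08 (Ndufa9), with a median of -0.11. Their median was -0.06, with 6 of 8 below 0, without replicate 3 of wild type with rotenone. Ndufa5, a small matrix-arm subunit, had the lowest estimate of all 34 genes. Ndufa5 read 9.33, 9.30 and 9.54 on the knockout rotenone arrays, against 9.44, 9.44 and 9.70 on the knockout vehicle arrays. In wild type, Ndufa5 read 9.37, 9.33 and 8.83 with rotenone, against 9.56, 9.38 and 9.77 with vehicle. Its rotenone values were below all vehicle values in wild type and overlapped them in knockout. The difference was below 0 in each of the 6 same-numbered pairs of arrays, from -0.94 in pair 3 of wild type to -0.05 in pair 2 of wild type. Its mean effect was -0.27 ± 0.11 (SE; limma adjusted p = 0.566), a fold of 0.831, with adjusted p = 0.223 in the limma fit with the block. The estimate was -0.18 without replicate 3 of wild type with rotenone. Ndufa9, which sits where the arms meet, had the estimate nearest to 0 in this group of subunits, -0.08 ± 0.09 (SE; limma adjusted p = 0.881).

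The 18 accessory subunits of the membrane arm had a median mean effect of -0.13, from -0.20 (Ndufb5) to 0.00 (Ndufa10), and 17 of them were below 0. Their median was -0.04 without replicate 3 of wild type with rotenone. Ndufb5 lies in the far part of the membrane arm. Ndufb5 read 10.65, 10.82 and 10.99 on the knockout rotenone arrays, against 10.94, 10.81 and 10.93 on the knockout vehicle arrays. In wild type, Ndufb5 read 10.83, 10.66 and 10.41 with rotenone, against 11.05, 10.76 and 11.08 with vehicle. The lowest of its 12 values was on replicate 3 of wild type with rotenone, its next lowest on replicate 1 of knockout with rotenone, and the groups overlapped. The mean effect was -0.20 ± 0.09 (SE; limma adjusted p = 0.636). Ndufa10, which has the fold of a nucleoside kinase, had the highest estimate. Ndufa10 read 10.60, 10.76 and 10.73 on the knockout rotenone arrays, against 10.85, 10.54 and 10.76 on the knockout vehicle arrays. In wild type, Ndufa10 read 10.83, 10.63 and 10.92 with rotenone, against 10.74, 10.65 and 10.89 with vehicle. It was not low on replicate 3 of wild type with rotenone, where it read higher than on any other array, and the mean effect did not pass the test (adjusted p = 0.996 by limma).

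Ndufb7, which faces the space between the membranes, gave a smaller estimate from a tighter spread. Ndufb7 read 11.33, 11.29 and 11.30 on the knockout rotenone arrays, against 11.41, 11.40 and 11.53 on the knockout vehicle arrays. In wild type, Ndufb7 read 11.40, 11.31 and 10.99 with rotenone, against 11.49, 11.38 and 11.50 with vehicle. All 3 knockout rotenone values lay below the knockout vehicle values, while in wild type replicate 1 with rotenone overlapped the vehicle arrays. The mean effect was -0.18 ± 0.07 (SE; limma adjusted p = 0.569). Ndufa4, counted with complex IV, read 11.81, 11.54 and 11.82 on the knockout rotenone arrays, against 11.81, 11.81 and 11.92 on the knockout vehicle arrays. In wild type, Ndufa4 read 11.81, 11.81 and 11.44 with rotenone, against 12.01, 11.83 and 12.04 with vehicle. Its wild-type rotenone values lay below all wild-type vehicle values, its knockout values overlapped, and its mean effect was -0.20 ± 0.09 (SE; limma adjusted p = 0.609). Ndufab1, the acyl carrier protein that complex I binds in both arms, had a mean effect of -0.06, and 0.03 without replicate 3 of wild type with rotenone.

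Split by genotype, rotenone gave no called gene either. In knockout cells the 34 estimates ran from -0.16 (Ndufs3) to 0.10 (Ndufc2) with a median of -0.02, and 20 were below 0, against 42.2% of all probe sets. None passed the limma threshold, at which 0.00884% of all probe sets were called, none was under an unadjusted p of 0.05 (3.66% of all; with the block also none, against 8.33%), and all 34 intervals lay within 1.5-fold. In wild-type cells they ran from -0.39 (Ndufa5) to 0.09 (Ndufs1) with a median of -0.21, and 32 of 34 were below 0, against 44.9% of all probe sets. None was called, against 0.0133% of all probe sets, 4 were under an unadjusted p of 0.05 (11.8%, against 4.36%; with the block 7, against 9.67%), and 23 of 34 intervals lay within 1.5-fold. With the block, the counts of called genes were 0 in both genotypes, against 0.301% of all probe sets in knockout and 0.628% in wild type. Rotenone values lay wholly below vehicle values for 3 genes in knockout (Ndufb10, Ndufb7 and Ndufs5 of the membrane arm, 8.82%, against 4.06% of all probe sets). In wild type this held for 3 others (Ndufa3, Ndufa4 and Ndufa5, 8.82%, against 2.87%).

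The wild-type shift was largest in 1 pair of arrays. Rotenone minus vehicle within same-numbered pairs had a median over the 34 genes of -0.09, 0.05 and -0.04 in knockout, and of -0.08, 0.03 and -0.53 in wild type. In pair 3 of wild type 32 of 34 genes were below 0, against 44.5% of all probe sets, from -0.94 (Ndufa5) to 0.20 (Ndufs1). Without replicate 3 of wild type with rotenone, the wild-type median was -0.07 in the fit without the block and -0.04 in the fit with it, and no gene was under an unadjusted p of 0.05 in the fit without the block.

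**Figure D2:**
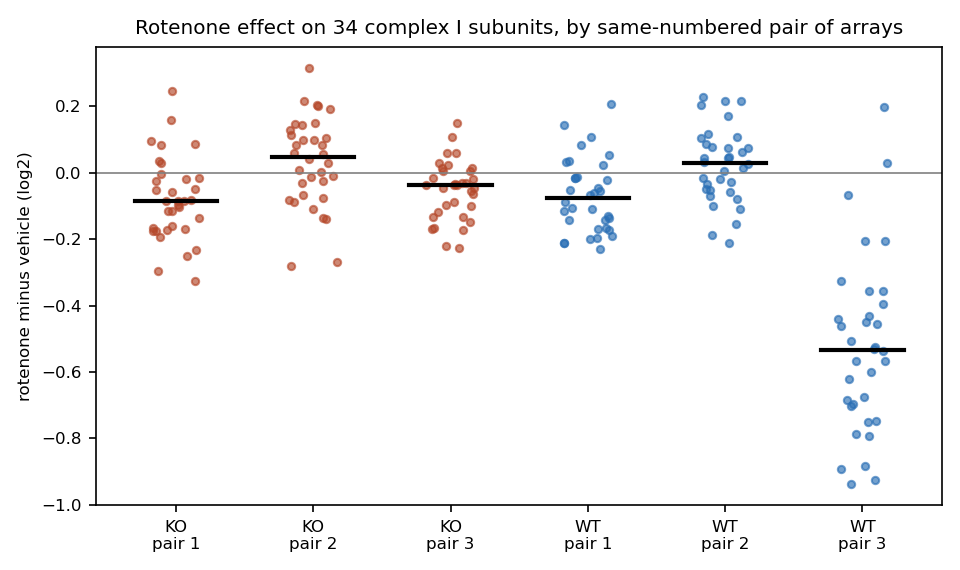
Rotenone minus vehicle (log2) for each of the 34 genes in the 3 same-numbered pairs of arrays of knockout and of wild-type cells; each point is 1 gene and the bar is the median. The medians lie between -0.09 and 0.05 in 5 of the pairs, and at -0.53 in pair 3 of wild type.

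Replicate 3 of wild type with rotenone was the lowest of the 12 arrays for 27 of the 34 genes (79.4%), against 16.4% of all probe sets. It was lowest for 24 of 38 subunits of complexes II to V (63.2%) and for 4 of 12 complex I assembly factors (33.3%). Set against the mean of replicates 1 and 2 of its group, it was lower for 31 of 34 genes with a median of -0.36, and 10 genes were lower by more than 0.5, against 4.27% of all probe sets. The same difference for the arrays numbered 3 in the other groups had a median of 0.08 in knockout with rotenone, 0.13 in knockout with vehicle and 0.10 in wild type with vehicle, with 0 genes lower by more than 0.5. The array was singled out after its values were seen, so these counts describe it and test nothing.

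By role, the median difference from the mean of its group's other two arrays was -0.47 over the 8 accessory subunits of the matrix arm, -0.36 over the 18 of the membrane arm and -0.25 over the 6 core subunits, with ranges that overlapped (-0.71 to 0.09, -0.86 to 0.19 and -0.43 to 0.36). The lowest was Ndufa3, a small protein that spans the membrane once. Ndufa3 read 12.06, 12.20 and 12.02 on the knockout rotenone arrays, against 12.08, 12.10 and 12.05 on the knockout vehicle arrays. In wild type, Ndufa3 read 11.95, 12.08 and 11.16 with rotenone, against 12.13, 12.11 and 12.08 with vehicle. Of its 12 values 11 lay between 11.95 and 12.20, and replicate 3 of wild type with rotenone stood alone below them. Ndufa13, a membrane-arm subunit also studied for its part in cell death, came next with -0.76. Ndufa2 and Ndufa6 of the matrix arm (both -0.71) and Ndufs5 of the membrane arm (-0.69) followed. Ndufs1 (0.36), Ndufa10 (0.19) and Ndufa9 (0.09) were higher on that array than on its group's other two. The median SD of the 34 genes was 0.11 in knockout with rotenone, 0.11 in knockout with vehicle, 0.24 in wild type with rotenone and 0.12 in wild type with vehicle.

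**Figure D3:**
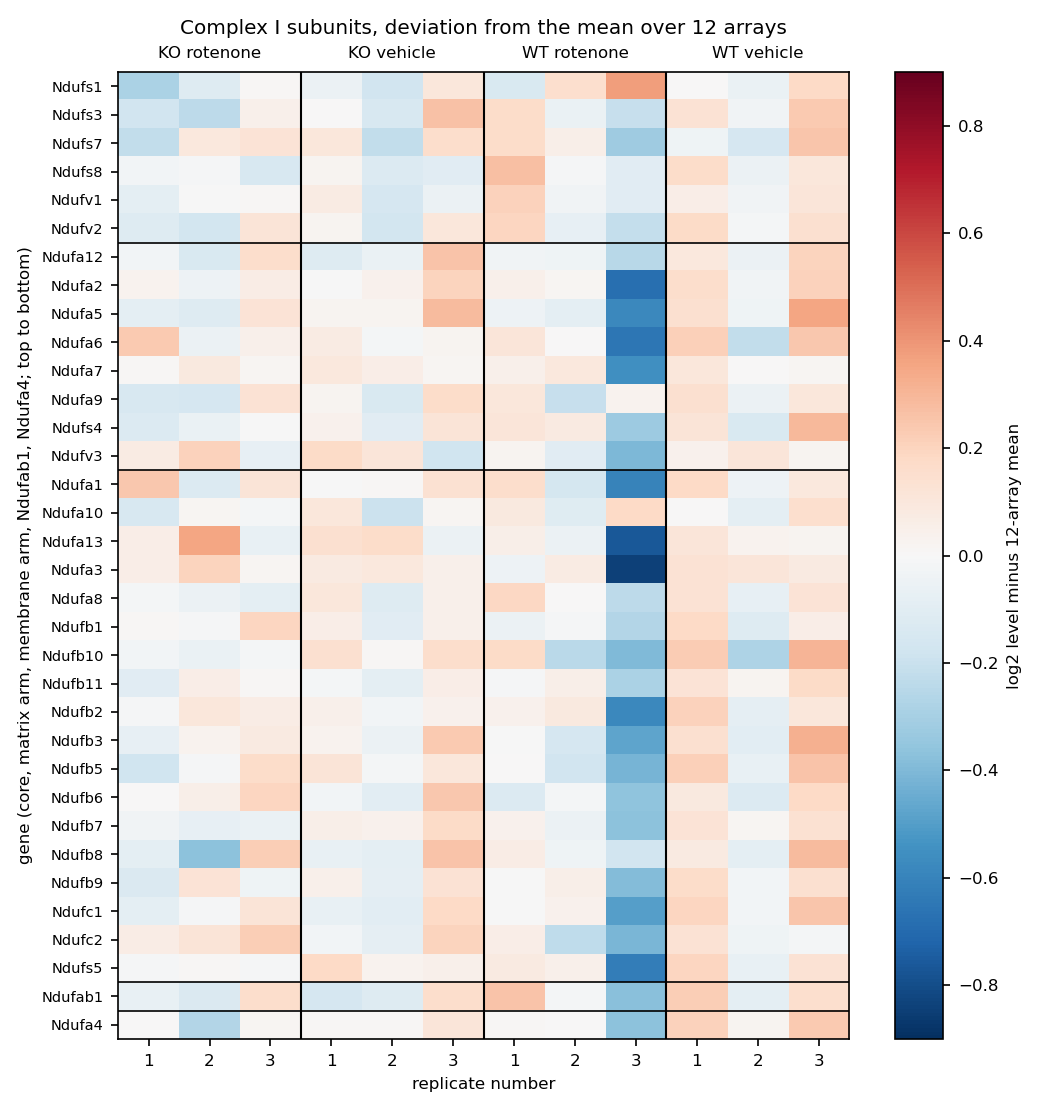
Deviation of each gene's log2 level from its mean over 12 arrays, with genes in rows grouped by role (core, matrix arm, membrane arm, Ndufab1, Ndufa4) and arrays in columns by group and replicate number. Blue is below and red above the mean; the column of replicate 3 of wild type with rotenone is blue for 31 of 34 genes.

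Measures of RNA quality and of other cells on that array were as follows. The difference between the 3′ and 5′ control probe sets was 0.02 for Gapdh, within the -0.06 to 0.18 of the other arrays, and -0.13 for actin, below the -0.05 to 0.12 of the others. The mean level of the 10 fibroblast markers was 12.06, inside the range of knockout with vehicle (11.86 to 12.08). The mean of the 5 epithelial markers was 7.37, the highest of the 12 arrays (6.46 to 6.94 on the others), with Epcam and Cdh1, which define epithelium, below the 40th percentile of all probe sets over the 12 arrays. Highest on that array too were the mean of the 5 endothelial markers (6.36, against 5.99 to 6.27 on the others) and that of the 5 muscle markers (7.81, against 7.33 to 7.73). Cdh5, Pecam1, Tie1 and Tek of endothelium and Myog, Myod1 and Myh3 of muscle were below the same percentile. The part of these in the low levels was not tested. The median deviation from the 12-array mean was -0.37 for the 34 genes, -0.28 for complexes II to V, -0.10 for the assembly factors and -0.03 for all probe sets. Taken singly, complex II had 0.06, complex III -0.24, complex IV -0.34 and complex V -0.35, so complexes IV and V were about as low as complex I.

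**Figure D4:**
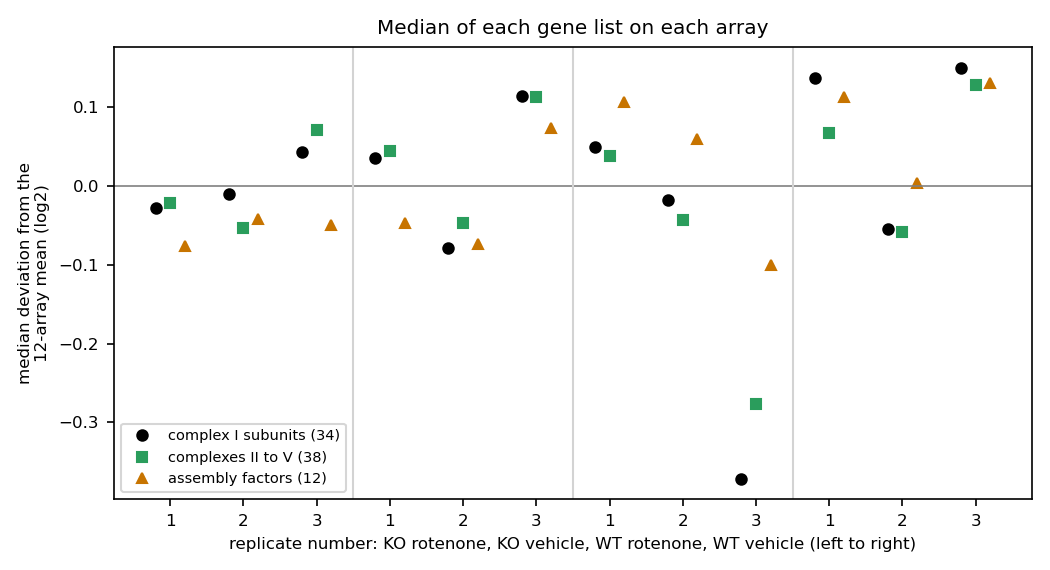
Median deviation (log2) from the 12-array mean of the 34 complex I genes (circles), the 38 subunits of complexes II to V (squares) and the 12 assembly factors (triangles) on each array, by group and replicate number. Complex I genes lie between -0.08 and 0.15 on 11 arrays and at -0.37 on replicate 3 of wild type with rotenone.

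On the same probe sets, no complex I gene differed past the test between knockout and wild-type cells given vehicle. The 34 estimates ran from -0.14 (Ndufs8) to 0.03 (Ndufa13) with a median of -0.05, and 29 were below 0, against 46.7% of all probe sets. The median was -0.12 without replicate 2 of wild type with vehicle, and -0.008 without replicate 2 of knockout with vehicle. None passed the limma threshold, against 0.00442% of all probe sets, and none was under an unadjusted p of 0.05 (1.04% of all; with the block also none, against 2.95%). With the block the count was 0 as well, against 0.0177% of all probe sets. All 34 intervals lay within 1.5-fold. With rotenone, in a comparison that uses the same wild-type rotenone arrays as the one above, the median was 0.12, with 24 of 34 above 0, against 54.3% of all probe sets. None was called, against 0.00442%, or 0.0398% with the block. Ndufc2 alone had an unadjusted p under 0.05, against 5.57% of all probe sets, and with the block there were 5, against 13%. Of the 34 intervals 29 lay within 1.5-fold. Knockout values lay wholly above wild-type values for 3 genes (Ndufb1, Ndufb6 and Ndufc2 of the membrane arm, 8.82%, against 7.92% of all probe sets). By pairs the median was -0.09, 0.00 and 0.42, and it was -0.02, with 14 of 34 above 0, without replicate 3 of wild type with rotenone.

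In the mean of both treatments the genotype estimates ran from -0.17 (Ndufs1) to 0.20 (Ndufa13) with a median of 0.03. The median turned to -0.03, with 24 of 34 below 0, when replicate 3 of wild type with rotenone was left out. None was called, against 0.00884% of all probe sets without the block and 0.552% with it. Unadjusted p-values under 0.05 numbered 0, against 5.99% of all probe sets, and with the block 2, against 13.1%. With all arrays 13 of the 34 estimates were below 0, against 45.4% of all probe sets, and all 34 intervals lay within 1.5-fold. Ndufa13 and Ndufc2 had the highest estimates. Ndufa13 read 11.23, 11.53 and 11.10 on the knockout rotenone arrays, against 11.31, 11.33 and 11.12 on the knockout vehicle arrays. In wild type, Ndufa13 read 11.22, 11.12 and 10.40 with rotenone, against 11.28, 11.20 and 11.19 with vehicle. Its lowest value was on replicate 3 of wild type with rotenone, and the knockout minus wild-type mean of 0.20 ± 0.13 (SE; limma adjusted p = 0.817) was 0.07 without that array. Ndufc2, at the foot of the membrane arm, read 11.28, 11.33 and 11.43 on the knockout rotenone arrays, against 11.19, 11.13 and 11.41 on the knockout vehicle arrays. In wild type, Ndufc2 read 11.27, 10.98 and 10.80 with rotenone, against 11.34, 11.17 and 11.20 with vehicle. Every knockout rotenone value was above every wild-type rotenone value, the vehicle values overlapped, and the mean difference was 0.17 ± 0.09 (SE; limma adjusted p = 0.817), or 0.11 without replicate 3 of wild type with rotenone. Ndufs1 had the lowest estimate, -0.17 ± 0.10 (SE; limma adjusted p = 0.817), and -0.11 without that array. Ndufs8 followed with -0.13 ± 0.08 (SE; limma adjusted p = 0.817), and -0.16 without it. Core subunits as a group had a median of -0.07, with 5 of 6 below 0, and -0.11 with 6 of 6 below 0 without it.

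Ndufa4, Ndufa5, Ndufa9 and Ndufb2 lie on chromosome 6, as Htra2 does. The knockout minus wild-type mean was -0.04 ± 0.09 (SE; limma adjusted p = 0.939) for Ndufa4 and 0.09 ± 0.11 (SE; limma adjusted p = 0.888) for Ndufa5. It was -0.04 ± 0.09 (SE; limma adjusted p = 0.938) for Ndufa9 and 0.07 ± 0.11 (SE; limma adjusted p = 0.903) for Ndufb2, so none of the 4 passed the test. Without replicate 3 of wild type with rotenone the estimates were -0.10 for Ndufa4, -0.0007 for Ndufa5, -0.02 for Ndufa9 and -0.03 for Ndufb2. Ndufa9 read 10.60, 10.60 and 10.89 on the knockout rotenone arrays, against 10.77, 10.61 and 10.91 on the knockout vehicle arrays. In wild type, Ndufa9 read 10.85, 10.54 and 10.78 with rotenone, against 10.90, 10.70 and 10.85 with vehicle. Its 4 groups overlapped. Ndufb2, a small membrane-arm subunit, read 11.33, 11.44 and 11.41 on the knockout rotenone arrays, against 11.39, 11.31 and 11.38 on the knockout vehicle arrays. In wild type, Ndufb2 read 11.38, 11.43 and 10.76 with rotenone, against 11.55, 11.26 and 11.44 with vehicle. Apart from the low value on replicate 3 of wild type with rotenone, its levels lay between 11.26 and 11.55.

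The rotenone effect in knockout minus that in wild type, the interaction, was above 0 for 31 of 34 genes, against 50.6% of all probe sets, with a median of 0.16 and a range from -0.18 (Ndufs1) to 0.39 (Ndufa3). No gene was called by limma, with or without the block, and no probe set of the array was (0%). At an unadjusted p under 0.05 there were 0 of the 34 genes, against 0.362% of all probe sets, and with the block 0, against 1.3%. Only 16 of 34 intervals lay within 1.5-fold, and all 34 within 2-fold. Without replicate 3 of wild type with rotenone the median was 0.02, with 20 of 34 above 0.

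Arrays numbered 3 differed from those numbered 1 and 2 for 3 of the 34 genes in a limma fit with the group as a covariate (8.82%). Of all probe sets 21.8% differed, 11.7% higher and 10.1% lower. Ndufs1 was higher by 0.25 ± 0.07 (SE; adjusted p = 0.0249), and higher in 4 of 4 groups. Ndufa13 (-0.32 ± 0.10 SE; adjusted p = 0.0293) and Ndufv3, a small matrix-arm subunit (-0.24 ± 0.07 SE; adjusted p = 0.0262), were lower. Ndufa3 had -0.26 ± 0.11 and was not called (adjusted p = 0.101). Without replicate 3 of wild type with rotenone, 4 genes were called (against 19.2% of all probe sets), all higher and none of them among these 3. They were Ndufb8, a membrane-arm subunit (0.36; adjusted p = 0.00705), Ndufa5 (0.26; adjusted p = 0.0185), Ndufa12 (0.26; adjusted p = 0.0252) and Ndufs3 (0.25; adjusted p = 0.0396), named after their values were seen. The count was 0 without replicate 3 of knockout with vehicle, and 0 without replicate 3 of knockout with rotenone. For those fits the share of all probe sets is not given, so these counts of 0 show nothing particular to the 34 genes.

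Of the 34 genes, 19 had further probe sets with the same single symbol, 34 in all. On replicate 3 of wild type with rotenone, 28 of these 34 were below the mean of replicates 1 and 2, with a median of -0.36, and 12 were lower by more than 0.5. The second Ndufa3 probe set gave -0.87, beside -0.86 for the first. In the mean rotenone effect 27 of the 34 further probe sets were below 0, with a median of -0.07 and none called without the block. With the block 1 of these 34 was called, a share near the 2.46% of all probe sets. The called one was a second probe set of Ndufb7, named after its values were seen. It read 10.05, 9.88 and 10.12 on the knockout rotenone arrays, against 10.37, 10.09 and 10.40 on the knockout vehicle arrays. In wild type it read 10.15, 10.04 and 9.71 with rotenone, against 10.44, 10.22 and 10.59 with vehicle. The rotenone array was lower in each of the 6 same-numbered pairs, with differences from -0.89 to -0.19. Its mean rotenone effect was -0.36 ± 0.09 (SE; limma adjusted p = 0.0396 with the block, 0.278 without). Without replicate 3 of wild type with rotenone it was -0.26, with adjusted p = 0.0303 in the fit with the block. The first, brighter Ndufb7 probe set gave -0.18 with adjusted p = 0.256 in the fit with the block.

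**Figure D5:**
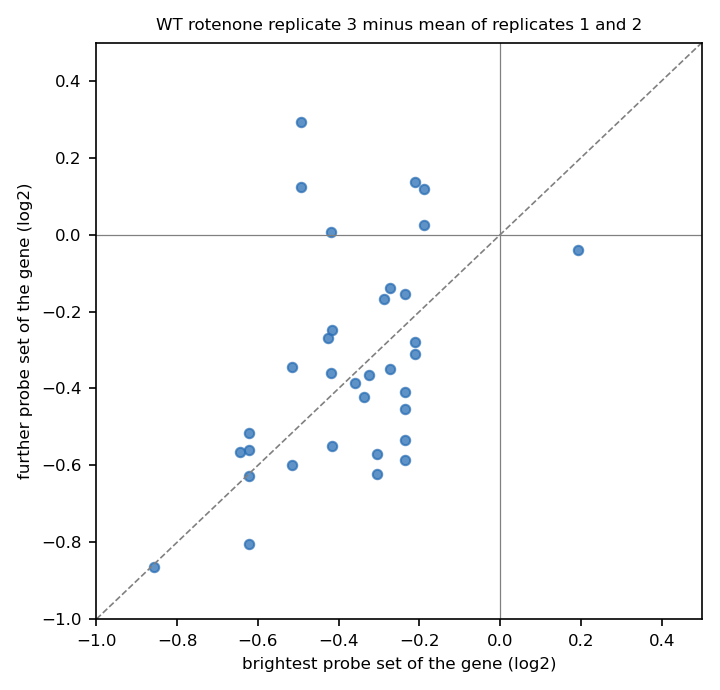
Replicate 3 of wild type with rotenone minus the mean of replicates 1 and 2 of that group (log2), for the 34 further probe sets (vertical) against the brightest probe set of the same gene (horizontal); the dashed line marks equal values. Most points lie below 0 on both axes, and 28 of 34 further probe sets are below 0.

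Genes that make or serve complex I gave no called member either. In the 7 comparisons of genotype and rotenone, at most 0.217% of all probe sets were called without the block. With the block at most 2.46% were. Counts of 0 in the short lists below are near those shares, so they say little about these genes. Of 18 listed assembly factors 12 were measured, and none was called in any of the comparisons of genotype or rotenone, with or without the block; their median mean rotenone effect was -0.06. The same held for the 6 measured genes of iron-sulphur cluster assembly (median -0.04), the 7 of ubiquinone synthesis (0.02), and the 13 regulators of mitochondrial biogenesis (0.08). Of the other complexes, none of the 4 genes of complex II, 9 of complex III, 11 of complex IV and 14 of complex V was called either, with medians of -0.02, -0.06, -0.09 and -0.12. Without replicate 3 of wild type with rotenone these medians were -0.06, -0.04, -0.02 and -0.06, and those of the assembly factors, iron-sulphur assembly, ubiquinone synthesis and regulators were -0.02, -0.03, 0.04 and 0.06. ND5, the 1 core subunit encoded by mitochondrial DNA that was measured, had a mean rotenone effect of 0.11 ± 0.25 (SE; adjusted p = 0.952 by limma). In the fit with the block the SE of ND5 was 0.07 (limma adjusted p = 0.463). Its level was 11.13, 10.86, 11.00 and 11.05 on the arrays numbered 3 of knockout with rotenone, knockout with vehicle, wild type with rotenone and wild type with vehicle, and 11.62 to 12.09 on the other 8 arrays.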

How the data were processed

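The authors deposited log2 expression values; per the submitters' processing notes they used RMA, and no version is given. RMA brings the arrays' distributions together, so a change shared by most transcripts would not show, and probe-set levels of different genes are not comparable. Biotin-labelled cRNA from column-purified total RNA was hybridised to Affymetrix arrays, per the labels' protocols. The 12 arrays were grouped by their titles. Of 22690 rows, 64 array controls were left out. Of the 34 probe sets, 3 were of type x_at and 4 of type s_at, which may bind related transcripts. Another 8 probe sets that name a subunit beside another gene were left out, so Ndufs6, Ndufa11 and Ndufb4 are not described.

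Differences were tested with limma 3.58.1 under R 4.3.3 (lmFit and eBayes, two-sided), fitting the 4 group means to all 12 arrays at once, with Benjamini-Hochberg adjustment over 22626 probe sets. The script was tested on simulated data. All 18 same-numbered pairs of arrays correlated in their deviations from the group means (r from 0.289 to 0.829). Same-numbered pairs of numbers 1 and 2 gave 0.289 to 0.554, and differently numbered pairs gave -0.688 to 0.476. The replicate number was taken to pair arrays, from these data and not the labels. For arrays numbered 1 and 2 those ranges overlap, so their pairing is an assumption of the block and of the same-numbered pairs. The members and lists were chosen with earlier results of these data known. Given with every array's value were the 2 highest and 2 lowest mean effects of rotenone and of genotype, the core subunits, Ndufa4, and genes on the chromosome of Htra2; Ndufa3, Ndufb7 and a further probe set were added after their values were seen. Alternatives were the block, each array or replicate number left out, intensity trend with robust variances, a filter at the 40th percentile, recentring, quantile normalisation, a fit on the compared groups alone and averaged probe sets. The number of arrays limits the precision.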

Additional observations from a re-analysis of the deposited data

How the results depend on the processing

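No gene of the 34 was called in any of the 7 comparisons of genotype and rotenone under any alternative run, also in the fit with the replicate number as block, where the count was 0 in each. The median over the 34 genes moved by more than 0.14, the SD of that median between arrays of a group, only where replicate 3 of wild type with rotenone was left out, alone or with its number. That SD includes this array, which widens it. Moves without this array alone from -0.211 to -0.074 (rotenone in wild type) and from 0.115 to -0.021 (knockout against wild type in rotenone) stayed just inside it. Without replicate number 3 and with the block, the median was -0.042 for knockout against wild type in rotenone, -0.041 for rotenone in wild type and -0.0025 for the interaction. With the block and without replicate 3 of wild type with rotenone, an alternative chosen after seeing the data, these were -0.058, -0.039 and -0.016. Leaving out each array in turn, the interaction median ran from 0.023 to 0.25. The count of genes called between the arrays numbered 3 and the rest ran from 0 to 4, against 3 with all arrays. With all arrays 21.8% of all probe sets were called in that comparison, and for most of the other fits that share is not given. Over 2263 values of the genes named by the rule, 0 reversed a call, 0 gained one and 10 lost one, all of Ndufs1 or Ndufa13 in the comparison of arrays numbered 3, in which Ndufs1, Ndufa13 and Ndufa3 alone were followed; in it, without replicate 3 of wild type with rotenone, Ndufv3 lost its call too and Ndufa5, Ndufa12, Ndufb8 and Ndufs3 gained one. Of the 2263 values, 229 that were not called changed sign. The cause was not tested. With 3 arrays a group, differences under about 1.5-fold in a single genotype were not resolved for every gene: 23 of 34 intervals were within that size for rotenone in wild type and 16 of 34 for the interaction.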
